A study of Homo sapiens with 12 samples.

Results

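Ribosomal protein pseudogenes were taken as the rows of the count table whose symbol joins a ribosomal protein name to the letter P and a number, with a mean over the 12 libraries of at least 0.5 CPM (read counts scaled to a common library size, here by column totals). RPLP0, RPLP1 and RPLP2, which are working genes of the ribosomal stalk, and RPL13P12 were left out by name. Of the 60623 rows of the table, 1143 had such a name, 595 of these had at least 1 read, and 120 reached the level. GENCODE 29 annotates 119 of the 120 as pseudogenes. The remaining row, RPS19BP1, is a protein-coding gene whose product binds the ribosomal protein RPS19, and it has such a name by its letters alone. The selection used no contrast between treatments, and all 120 rows passed the filter on low counts. The mean over 12 libraries can still admit a row through the group where it is high: 91 of the 120 had a control mean of at least 0.5 CPM and 29 did not. RPL21P44 and RPL21P89 lay just inside the level at a mean of 0.51 CPM, and RPL41P5 and RPL7AP66 just outside it at 0.495 and 0.487 CPM.

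Ribosomal proteins form the small (RPS) and large (RPL) subunits of the ribosome, and their genes are among the most strongly transcribed in growing cells. Their messages have been copied back into DNA many times in the human germ line, which left processed pseudogenes: intronless copies that mostly lack a promoter and an open reading frame under selection. A copy that is young still carries nearly the sequence of its parent gene, so a short read from the parent message can also be placed on the copy. An old copy has drifted apart, and one that lies in an intron can be read through as part of the transcript of its host gene.

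The libraries came from NUGC-4, an established diffuse gastric cancer cell line labelled wild type, sampled at 24 h. There were 3 libraries with the combination of 1 µM IN10018 and 1 µM crizotinib, 3 with 1 µM crizotinib alone, 3 with 1 µM IN10018 alone and 3 controls, for which no vehicle is named. IN10018 inhibits focal adhesion kinase, and crizotinib inhibits the receptor kinases MET, ALK and ROS1. Nothing in the labels ties the libraries to separate cultures, so p-values measure the spread between these libraries, which may be technical. Column totals ran from 13691844 to 20489708 reads. The epithelial keratin KRT8 had 1118 to 2362 CPM and the epithelial adhesion molecule EPCAM 15.5 to 21.1 CPM, whereas the epithelial keratin KRT19 and the gastric peptide TFF2 had no read in any library, and the gastric genes MUC5AC and CLDN18 had at most 0.0570 and 0.114 CPM. The gastric mucin MUC6 was present, with means of 22.0 CPM with the combination, 9.72 CPM with crizotinib, 5.37 CPM with IN10018 and 2.62 CPM in controls. The description label names adipogenic differentiation for every sample; the adipocyte hormone ADIPOQ had no read, while FABP4, a fatty acid binding protein of adipocytes, had 60.1 to 129 CPM. Mitochondrially encoded genes took 6.99, 4.28 and 6.62% of the reads with the combination and 13.3, 5.21 and 9.46% with crizotinib. Their share was 11.5 to 12.7% with IN10018 and 10.997 to 11.9% in controls. The 3 crizotinib libraries were spread widely in this share, with library 2 lowest, and counts without single libraries are given beside the results they move.

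The 119 pseudogenes traced by name to 53 parent genes, of which 28 had 1 copy among them and RPL7 had the most, with 8. GENCODE 29 calls 106 of them processed, 11 transcribed processed and 2 transcribed unprocessed pseudogenes. On 23 chromosomes, 109 rows had a single exon, 37 pseudogenes lay in a same-strand intron of another gene and 3 overlapped a same-strand exon. Likeness to the parent was measured as the share of all 50-base stretches of the pseudogene found letter for letter in a transcript of the parent. The median share was 16.9%. It reached 50% or more in 29 pseudogenes, 10 to 50% in 37 and under 10% in 53, and the median alignment identities of these classes were 99.5, 97.2 and 89.3%. In 4 pseudogenes, RPS28P7, RPL39P3, RPL21P16 and RPL41P1, every 50-base stretch was also in the parent, and in 30 none was. The class of close copies had a median of 16.7 CPM by column totals, the middle class 1.42 CPM and the diverged class 0.833 CPM. Of the 53 diverged pseudogenes, 26 lay in a same-strand intron, against 6 of the 29 close copies.

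The range of likeness can be seen in sequences from GENCODE 29 on GRCh38, printed 5′ to 3′ on the strand of the gene. RPS28P7, a copy of the small-subunit gene RPS28 at chr11:82689559-82689768 (plus strand), is shown whole because its 210 bases are the same letters as the RPS28 coding sequence with its stop codon, which is spliced from chr19:8321531-8322075 (plus strand). No read inside it can be assigned to the copy or to the coding part of RPS28 from its letters, unless it crosses an end of the copy.
RPS28P7: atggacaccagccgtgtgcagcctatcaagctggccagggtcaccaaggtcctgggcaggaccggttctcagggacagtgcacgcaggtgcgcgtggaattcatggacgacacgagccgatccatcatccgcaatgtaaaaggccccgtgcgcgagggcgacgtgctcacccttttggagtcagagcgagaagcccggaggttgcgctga

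A close copy with few differing letters is RPL13AP5, from the large-subunit gene RPL13A. The 90 bases at chr10:96750471-96750560 (plus strand) hold the most differences found in any 90-base stretch of the aligned coding sequence, which is 2, in capitals. The RPL13A bases are spliced from chr19:49490504-49490795 (plus strand).
RPL13AP5: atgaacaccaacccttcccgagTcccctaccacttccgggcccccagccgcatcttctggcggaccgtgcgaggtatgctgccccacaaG
RPL13A: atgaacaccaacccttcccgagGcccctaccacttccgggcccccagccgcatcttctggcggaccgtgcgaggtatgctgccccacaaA

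The copies of RPSA, the gene of a small-subunit protein also known as the laminin receptor precursor, are shown over the same 90 coding bases because they moved in opposite directions, as described below. The stretch was chosen as the one where RPSAP15 differs most from RPSA. Its counts of differences therefore do not rank the copies by likeness, and shares over whole copies are given below. RPSAP15 lies at chrX:87703552-87703641 (minus strand), RPSAP58 at chr19:23827751-23827840 (plus strand), RPSAP19 at chr1:101786545-101786634 (minus strand), and the RPSA bases are spliced from chr3:39411740-39411947 (plus strand). Capitals in a copy mark bases that differ from RPSA, 5 in RPSAP15, 0 in RPSAP58 and 1 in RPSAP19, and capitals in RPSA mark the 6 places where a printed copy differs.
RPSAP15: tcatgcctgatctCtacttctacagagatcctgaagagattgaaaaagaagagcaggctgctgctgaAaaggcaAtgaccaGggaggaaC
RPSAP58: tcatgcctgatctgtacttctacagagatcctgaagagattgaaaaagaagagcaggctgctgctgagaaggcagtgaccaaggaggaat
RPSAP19: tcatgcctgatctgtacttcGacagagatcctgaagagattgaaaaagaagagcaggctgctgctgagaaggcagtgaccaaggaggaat
RPSA: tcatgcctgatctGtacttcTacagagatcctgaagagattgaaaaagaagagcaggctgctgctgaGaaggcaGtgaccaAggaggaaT

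With the combination, ribosomal protein pseudogenes were mostly higher than in controls. Of the 120 rows, 61 rose and 7 fell in edgeR's quasi-likelihood test (Benjamini-Hochberg adjusted p under 0.05 over all 17096 tested genes), while 33.7% of all tested genes rose and 29.1% fell. The median log2 fold change was 0.78 over the 120 rows, against 0.10 over all tested genes and 0.40 over the 53 parents, of which 37 rose and 4 fell. Among the 91 rows with a control mean of at least 0.5 CPM, 43 rose and 7 fell, and among the 29 below that level 18 rose and none fell, a group that the level itself tilts upward. Of the close copies 19 rose and 2 fell, of the middle class 17 and 2, and of the diverged class 24 and 3, with medians of 0.73, 0.90 and 0.74. These counts include rows low in controls. At a control mean of at least 0.5 CPM, a split made after the values were seen, 18 of 28 close copies rose and 2 fell. Of the middle class 12 of 29 then rose and 2 fell, and of the diverged class 12 of 33 rose and 3 fell. The medians were then 0.68, 0.78 and 0.39. The number that fell was 4 without combination library 1, 4 without combination library 2 and 11 without combination library 3. Scaling by library totals alone moved the median of all genes by more than 0.1, to 0.27, and the median of the 120 rows to 0.96; the number of rows that fell was then 3.

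With crizotinib alone 28 rows rose and 1 fell, against 20.0 and 17.6% of all tested genes, with a median of 0.45 over the rows, 0.08 over all genes and 0.31 over the parents. Among the 91 rows with a control mean of at least 0.5 CPM, 23 rose and 1 fell, with a median of 0.38. Among the 29 below that level, which tilts them upward, 5 rose and 0 fell, with a median of 0.90. The count of 28 moved with single libraries, and 7 rows rose without crizotinib library 2 and 45 without crizotinib library 1. Over all genes, 1770 of 17457 rose without crizotinib library 2 and 4468 of 17556 without crizotinib library 1. Without control library 1, 2 or 3 the count of rows was 12, 14 or 11, beside 1762, 2609 or 1354 over all genes. The row that fell was RPL34P20, which was no longer called without crizotinib library 3. The number that fell with crizotinib was 4 without crizotinib library 1, 3 without combination library 2 and 2 without combination library 3, which enter the same fit. With the libraries numbered 2 of both crizotinib and the combination left out, 57 rows rose and 7 fell with the combination, and 23 rose and 1 fell with crizotinib.

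IN10018 alone moved no row past the threshold in edgeR, where 0.345% of all genes rose and 0.158% fell. At an unadjusted p under 0.05, 7 rows were higher and 1 lower, with the same numbers in DESeq2 and limma-voom, of which DESeq2 called 1 row higher and limma-voom none. Of all 17096 genes, 1448 were higher and 438 lower at that level in edgeR. DESeq2 gave no adjusted p for 48 of the rows and so could not call them. The median was -0.03 over the rows and -0.02 over all genes. Against IN10018, the combination gave 60 rows that rose and 6 that fell, beside 29.7 and 27.5% of all genes, with a median of 0.68, and it shares the combination libraries with the comparison against controls. The number that fell was 3 without IN10018 library 2 or without combination library 1. Against crizotinib, the combination gave no call by edgeR, with 0% of all genes higher and 0.0117% lower. At an unadjusted p under 0.05, 19 rows were higher and 5 lower, while DESeq2 and limma-voom called none and had 14 and 17 higher and 4 and 5 lower at that level. In edgeR 1612 of all 17096 genes were higher and 2085 lower at that level. In this comparison 61 of the rows had no adjusted p from DESeq2, which could not call them. Replicate numbers pair these libraries only weakly by the correlation of their residuals. With the number as a block 0 rows rose and 1 fell, beside 90 and 4 of all 17096 genes. Without crizotinib library 2, 32 rows rose and 6 fell, beside 2614 and 3027 of all 17457 genes tested in that fit. The interaction of the drugs likewise gave no call, beside 0.0585% of all genes higher and 0.0117% lower. At an unadjusted p under 0.05 it had 5 rows higher and 4 lower in edgeR, 9 and 3 in DESeq2 and 6 and 5 in limma-voom, and neither other tool called a row. Over all 17096 genes edgeR had 568 higher and 799 lower at that level. For the interaction 27 of the rows had no adjusted p from DESeq2. Without crizotinib library 2 the interaction gave 5 and 2 calls, beside 392 and 414 over all 17457 genes tested in that fit.

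Summed over the 119 pseudogenes, the share of all reads was 0.236, 0.292 and 0.222% with the combination, 0.165, 0.262 and 0.193% with crizotinib, 0.142, 0.138 and 0.144% with IN10018 and 0.148, 0.144 and 0.149% in controls. Every combination and crizotinib library thus lay above every control. The 53 parents took 4.07, 4.57 and 3.78% with the combination and 3.05, 4.21 and 3.40% with crizotinib. Parents took 2.46, 2.42 and 2.61% with IN10018 and 2.55, 2.54 and 2.63% in controls. Pseudogene reads per 100 parent reads lay between 5.42 and 6.38 in all 12 libraries. RPL7P9, set apart after its values were seen, held 27.7, 37.0 and 23.6% of the pseudogene reads with the combination and 9.71, 9.91 and 10.4% in controls. Without RPL7P9 the other pseudogenes gave 4.19, 4.02 and 4.49 reads per 100 parent reads with the combination and 4.82, 4.45 and 4.61 with crizotinib. They gave 5.18, 5.10 and 4.96 with IN10018 and 5.25, 5.09 and 5.07 in controls. In this ratio the combination lay below the controls in every library. The sum still holds RPSAP47 and RPSAP15, which fell. With the combination RPSAP47 had 348, 174 and 668 reads and RPSAP15 329, 168 and 487. Controls had 2035, 2086 and 2799 reads of RPSAP47 and 1282, 1429 and 1867 of RPSAP15. Their part in this order was not tested, so nothing is read from it about the other pseudogenes at large. By fitted log2 fold change, 82 of the 119 pseudogenes stood above their parent with the combination. The 119 include 29 with a control mean under 0.5 CPM, which that level tilts upward, while parents were not chosen by it. Nothing is read from this count. In bulk RNA, fewer cells with a transcript and less of it per cell cannot be told apart.

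The 10 most read rows held 67.3% of all reads on the 120 rows, and they did not move as a block. RPL7P9, a copy of the large-subunit gene RPL7 at chr1:96678874-96679620 (minus strand) with 2 mismatches in its alignment to RPL7, was the highest row, also per kilobase of exon. It had 610.0, 1026 and 494 CPM with the combination, 184, 704 and 364 CPM with crizotinib, 146.5, 146.5 and 146.0 CPM with IN10018 and 155, 147 and 169 CPM in controls. Every combination library exceeded every control, and crizotinib library 1 lay close to the controls while library 2 lay above combination libraries 1 and 3. Its log2 fold change was 2.18 ± 0.36 (SE) with the combination (adjusted p = 0.00026) and 1.41 ± 0.36 with crizotinib (adjusted p = 0.01), and the crizotinib call was lost without crizotinib library 2, at 0.80.

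RPL7P1, another copy of RPL7, with 3 mismatches, was not called. It had 253, 226 and 314 CPM with the combination and 256, 231 and 242 CPM in controls, which overlap, and a log2 fold change of 0.12 ± 0.14 (adjusted p = 0.47). The RPL7 row itself rose, with 2122, 2358 and 2172 CPM with the combination, against 1617, 1566 and 1739 CPM in controls and a log2 fold change of 0.43 ± 0.13 (adjusted p = 0.0093). RPL7P9 had 28.8, 43.5 and 22.7 reads per 100 RPL7 reads with the combination, 10.8, 27.6 and 17.7 with crizotinib, 10.1, 9.98 and 9.14 with IN10018 and 9.56, 9.42 and 9.72 in controls. RPL7P1 had 11.9, 9.61 and 14.4 with the combination and 15.9, 14.7 and 13.9 in controls, so the ratio of RPL7P9 lay above every control in all combination libraries, whereas that of RPL7P1 overlapped the controls. The difference between a copy and its parent was not tested, since they may share reads.

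**Figure D1:**
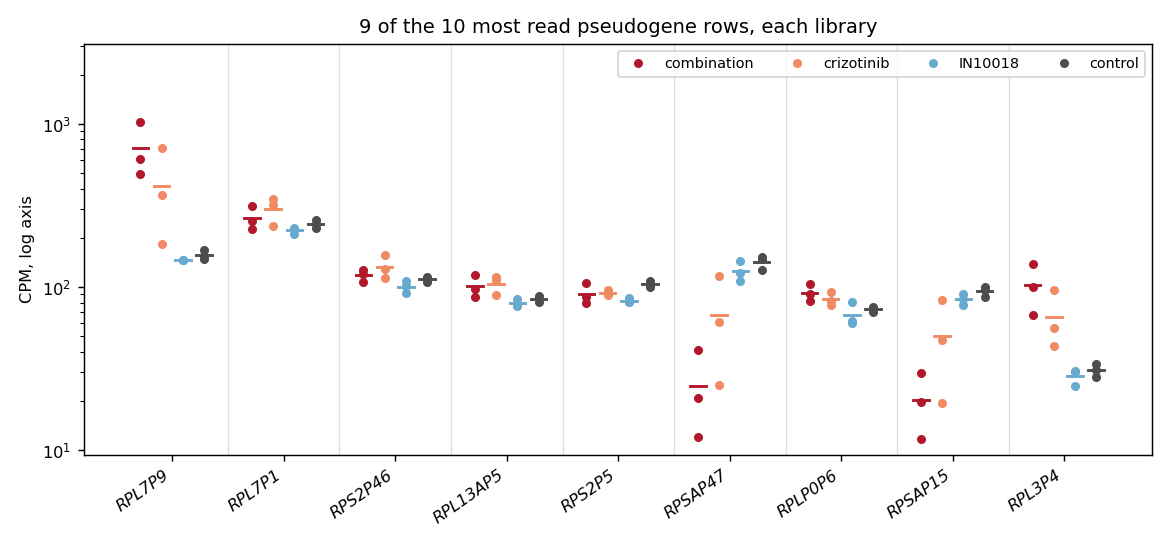
CPM (TMM-scaled, log axis) of 9 of the 10 rows with the highest mean, in order; each point is 1 library, the line is the mean of 3, and colours run combination, crizotinib, IN10018, control. RPL7P9 and RPL3P4 stand higher with the combination than in controls in every library, and RPSAP47 and RPSAP15 stand lower.

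RPL3P4, another well-read row, rose. It copies part of RPL3, which encodes a protein near the peptidyl transferase centre. It had 99.8, 139 and 66.8 CPM with the combination, 43.4, 95.3 and 56.2 CPM with crizotinib, 30.0, 24.5 and 30.6 CPM with IN10018 and 28.0, 30.7 and 33.6 CPM in controls. Combination and crizotinib libraries all lay above the controls, with log2 fold changes of 1.72 ± 0.27 (adjusted p = 0.00019) and 1.08 ± 0.27 (adjusted p = 0.01), against 0.49 and 0.33 for RPL3.

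RPL13AP5, printed above, had 97.2, 86.4 and 118 CPM with the combination and 87.2, 81.1 and 86.0 CPM in controls. The groups overlap and the log2 fold change was 0.25 ± 0.13 (adjusted p = 0.1), while RPL13A rose by 1.07. It had 3.91, 2.62 and 5.12 reads per 100 RPL13A reads with the combination, 5.63, 3.95 and 5.69 with crizotinib, 6.39, 6.87 and 6.47 with IN10018 and 6.71, 6.66 and 6.42 in controls, and every combination and crizotinib library lay below every control. RPLP0P6, a copy of the stalk gene RPLP0, had 89.7, 104 and 81.5 CPM with the combination and 74.6, 69.8 and 74.96 CPM in controls, with a log2 fold change of 0.33 ± 0.13 (adjusted p = 0.04) that lost its call under 9 of 21 alternatives. RPS2P46 and RPS2P5, copies of the small-subunit gene RPS2, were not called, at 0.08 and -0.20, while RPS2 rose by 0.35.

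Of the 4 copies with every 50-base stretch in the parent, 3 rose with the combination, where 33.7% of all tested genes rose. Nothing is read from so small a count. RPS28P7, the copy without a differing base, had more reads than RPS28 in every library, with 178, 182 and 120 per 100 RPS28 reads with the combination, 148, 139 and 127 with crizotinib, 124, 122 and 135 with IN10018 and 123, 131 and 136.5 in controls. It had 90.4, 153 and 61.3 CPM with the combination and 30.8, 30.2 and 33.15 CPM in controls, and rose by 1.69 ± 0.30 on the log2 scale (adjusted p = 0.00034), beside 1.36 for RPS28. RPL39P3, a copy of the short large-subunit gene RPL39, rose by 0.73 beside 0.93 for RPL39, and RPL21P16 rose by 0.55 beside 0.60 for RPL21. RPL41P1 was not called with the combination, at 0.16, nor was RPL41, at 0.10.

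Copies of RPSA were called in both directions. Of its 7 copies among the rows, 3 rose and 2 fell with the combination, beside 33.7 and 29.1% of all tested genes. Nothing is read from these counts about the family. RPSA itself rose by 0.61 ± 0.15 (adjusted p = 0.003). RPSAP47, at chr8:80558870-80559757 (plus strand), had 20.7, 12.1 and 40.8 CPM with the combination, 116, 24.9 and 60.7 CPM with crizotinib, 143, 121 and 108 CPM with IN10018 and 152, 126 and 149 CPM in controls. All combination libraries were lower than all controls, and crizotinib library 2 fell among the combination libraries. Its log2 fold change was -2.53 ± 0.46 with the combination (adjusted p = 0.00041) and -1.08 ± 0.43 with crizotinib (adjusted p = 0.062). RPSAP15 had 19.5, 11.7 and 29.8 CPM with the combination, 82.9, 19.3 and 47.2 CPM with crizotinib, 84.5, 77.2 and 90.1 CPM with IN10018 and 95.8, 86.3 and 99.2 CPM in controls. It fell by 2.201 on the log2 scale (SE 0.40, adjusted p = 0.0004) with the combination, and its crizotinib value was -0.91 (adjusted p = 0.069).

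RPSAP47 and RPSAP15 lie on different chromosomes and share 12.8% of the 50-base stretches of RPSAP47, and 15.0% of those of RPSAP47 and 41.3% of those of RPSAP15 are in RPSA. RPSAP47 had 1.06, 1.04 and 1.37 reads per RPSAP15 read with the combination, 1.40, 1.29 and 1.29 with crizotinib, 1.69, 1.57 and 1.20 with IN10018 and 1.59, 1.46 and 1.499 in controls. RPSAP19, which shares 36.1% with RPSA, had 14.7, 31.9 and 11.6 CPM with the combination, 4.79, 25.1 and 7.69 CPM with crizotinib, 3.46, 3.03 and 3.10 CPM with IN10018 and 4.11, 2.17 and 3.93 CPM in controls. It rose by 2.51 ± 0.54 (adjusted p = 0.0012) with the combination and by 1.89 ± 0.54 (adjusted p = 0.017) with crizotinib, a call lost without crizotinib library 2, at 0.87. RPSAP58, the copy without a difference in the printed stretch, rose by 0.80 ± 0.23 (adjusted p = 0.0076), and RPSAP9 rose by 0.82 ± 0.24 (adjusted p = 0.0089).

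**Figure D2:**
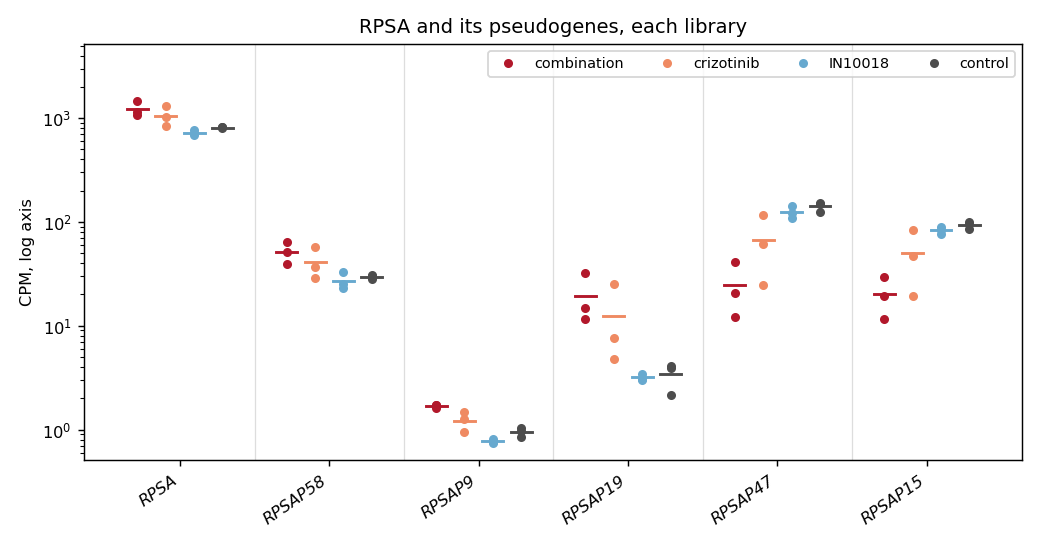
CPM (TMM-scaled, log axis) of RPSA and 5 of its copies; each point is 1 library, the line is the mean of 3, and colours run combination, crizotinib, IN10018, control. RPSAP47 and RPSAP15 fall with the combination while RPSA, RPSAP58, RPSAP9 and RPSAP19 rise, and of the crizotinib libraries, library 2 is lowest for RPSAP47 and RPSAP15 and highest for RPSAP19.

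Set beside their parents over all 119 pseudogenes, both the copy and the parent were called in the same direction for 50 with the combination and in opposite directions for 7. For 10 only the copy was called and for 37 only the parent. Taken singly, 60 of the 119 pseudogenes and 37 of the 53 parents rose, beside 33.7% of all tested genes. With crizotinib 20 pairs were called in the same direction and 1 in opposite directions. For 7 only the copy was then called and for 37 only the parent. Nothing is read from these counts of pairs. The ratio of pseudogene to parent reads lay above every control library in all 3 combination libraries for 41 pseudogenes, below it for 13 and overlapped for 65. For scale, 37.9% of all tested genes had CPM above every control in all combination libraries and 33.2% below, so the count of higher ratios was no larger a share than that of levels over all genes. With crizotinib 20 ratios lay above, 11 below and 88 overlapped, beside 26.3 and 25.1% of all genes by CPM. With IN10018 14 lay above, 2 below and 103 overlapped, beside 14.0 and 18.9% of all genes, and nothing is read from these counts about the pseudogenes. Ranked by how little the log2 ratio varied over the 12 libraries, the own parent came first among the 53 parents for 7 of 119 pseudogenes. It did so for 5 of the 22 close copies with a mean of at least 5 CPM, among them RPS28P7, RPL10P16, RPL15P3 and RPS7P11, and the median rank over the 22 was 7.

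**Figure D3:**
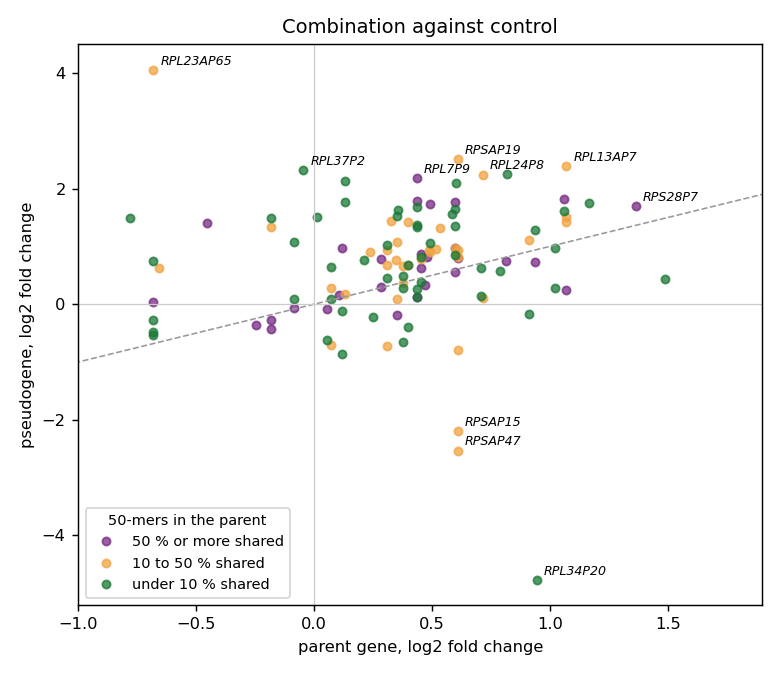
Log2 fold change with the combination against control of 119 pseudogenes (vertical) and of their parents (horizontal), coloured by the share of 50-base stretches found in the parent; the dashed line marks equal change. Most points lie above 0 on both axes, and RPSAP47, RPSAP15 and RPL34P20 lie below 0 under parents that rose.

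The 7 that opposed their parents were RPSAP47, RPSAP15, RPL34P20, RPL23AP65, RPL23AP64, RPS23P8 and RPL35AP32. RPL34P20, at chr10:97393197-97393547 (minus strand), is a copy of the large-subunit gene RPL34 in an intron of RRP12, a ribosome export factor gene, and no 50-base stretch of it was found in RPL34. It had 1, 1 and 0 reads with the combination, 10, 13 and 6 with crizotinib, 19, 32 and 13 with IN10018 and 16, 24 and 26 in controls. The 2 reads with the combination against 66 in controls gave a ratio of 0.0310, with an exact interval at the 95% level of 0.00368 to 0.117 that covers counting error only. The fitted log2 fold change was -4.77 ± 0.56 (adjusted p = 5.7e-05) and -1.22 ± 0.34 with crizotinib (adjusted p = 0.016), while RPL34 rose by 0.94 with the combination and the host RRP12 by 0.53. RPL23AP65, a copy of the large-subunit gene RPL23A, had 12, 47 and 9 reads with the combination, 2, 19 and 3 with crizotinib, 0, 1 and 0 with IN10018 and 0, 3 and 1 in controls. The 68 reads with the combination against 4 in controls gave a ratio of 17.4, with an interval of 6.50 to 65.7 for counting error. It rose by 4.05 ± 1.04 on the log2 scale (adjusted p = 0.0041), while RPL23A fell by 0.68. The means of RPL23AP65 were 1.51 CPM with the combination, 0.464 CPM with crizotinib, 0.0168 CPM with IN10018 and 0.0781 CPM in controls. It thus reached the level of 0.5 CPM through the combination, and that choice of rows tilts its change upward. RPL23AP64 rose by 0.74 ± 0.29 (adjusted p = 0.04), a call lost under 11 of 21 alternatives. RPS23P8 rose by 1.40 and RPL35AP32 by 1.49, at under 1.5 CPM in every library, whereas their parents RPS23 and RPL35A fell by 0.45 and 0.78. Their control means, 0.381 and 0.289 CPM, were also under the level of 0.5 CPM. The call of RPL35AP32 was lost under 5 of 19 alternatives and that of RPS23P8 under 1 of 20.

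Other rows that rose strongly with the combination were low. RPL24P8, a copy of RPL24, had 8.79, 12.6 and 7.03 CPM with the combination, against 1.79, 2.05 and 2.12 CPM in controls, and rose by 2.24 ± 0.37 (adjusted p = 0.00022) beside 0.71 for RPL24. RPL13AP7 rose by 2.38 ± 0.66 (adjusted p = 0.0063), with 1.25, 4.65 and 1.34 CPM with the combination and 0.299, 0.483 and 0.531 CPM in controls. RPL37P2 rose by 2.31 ± 0.62 (adjusted p = 0.0053), while RPL37 was not called, at -0.05. RPLP1P6, in an intron of the copper chaperone gene ATOX1, rose by 2.24 ± 0.35 (adjusted p = 0.00018), and ATOX1 rose by 1.19. RPL13AP7, RPL37P2 and RPLP1P6 had control means of 0.438, 0.246 and 0.364 CPM. These are under the level of 0.5 CPM, which tilts such rows upward. The 4 that fell besides those named were small in size: RPL14P3 by 0.62, RPL23AP7 by 0.53, RPS7P1 by 0.44 and RPL15P3 by 0.36. The call of RPL14P3 was lost under 6 of 21 alternatives and those of RPL23AP7 and RPS7P1 under 2 each, scaling by library totals among them. RPL22P12 fell by 1.36 with the combination against IN10018 (adjusted p = 0.025), at under 1 CPM in all libraries. RPS19BP1, the protein-coding row, had 56.8, 87.6 and 46.3 CPM with the combination, 30.2, 56.1 and 38.6 CPM with crizotinib, 26.2, 24.0 and 26.6 CPM with IN10018 and 25.85, 27.0 and 26.03 CPM in controls. It rose by 1.27 ± 0.23 with the combination (adjusted p = 0.00037) and by 0.66 ± 0.23 with crizotinib (adjusted p = 0.034).

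By family, 5 of 8 copies of RPL7 rose with the combination, from a log2 fold change of 0.12 to 2.18, and 5 of 7 copies of RPL21 rose, from 0.55 to 1.76. None of the 5 copies of RPL12 was called, from -0.66 to 0.66, nor any of the 4 of RPL5, from -0.70 to 0.64. Of the 6 copies of RPL23A, 2 rose and 1 fell, and the remaining 3 were not called. Over all tested genes 33.7% rose and 29.1% fell, and nothing is read from the counts by family. Some copies that rose had control means under 0.5 CPM, such as RPL7P7 at 0.446 CPM and RPL21P89 at 0.328 CPM. The level of 0.5 CPM tilts such rows upward. Where the parent row is itself low, as for RPL17, RPS10, RPL36A and RPL26, the annotation places a read-through or overlapping gene on its exons, and the part of this in the ratios was not tested.

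Among all 53 diverged rows 40 had a log2 fold change above 0 with IN10018 and the median was 0.24, whereas 5 of 29 close copies were above 0, with a median of -0.12, and 10 of 37 of the middle class, with a median of -0.16. Over all tested genes 46.8% were above 0. The classes also differ in level, and a row low in controls can enter through a treated group: 20 of the 53 diverged rows, 1 of the close copies and 8 of the middle class had a control mean under 0.5 CPM. Among rows at or above that control mean, a split made after the values were seen, 24 of 33 diverged rows were above 0 with a median of 0.09, against 5 of 28 close copies with a median of -0.12 and 5 of 29 of the middle class with a median of -0.19. For the 26 diverged rows in a same-strand intron, 22 were above 0 and the median was 0.51, and for the other 27 it was 0.08. At a control mean of at least 0.5 CPM, 13 of 16 intronic diverged rows were above 0 with IN10018, with a median of 0.35. Of the others 11 of 17 were, with a median of 0.04. None of these passed the adjusted threshold, and no test was made of the classes. With the combination 17 of the 26 intronic diverged rows rose and 2 fell, with a median of 1.35, against 7 and 1 of the 27 others, with a median of 0.27, where 33.7% of all genes rose and 29.1% fell. At a control mean of at least 0.5 CPM, 9 of 16 intronic diverged rows rose and 2 fell, with a median of 0.90, and 3 of 17 others rose and 1 fell, with a median of 0.08. RPS15AP10, in an intron of GPBP1L1, had 2.61, 2.57 and 2.02 CPM with the combination, 1.83, 2.05 and 2.10 CPM with crizotinib, 1.36, 1.92 and 1.17 CPM with IN10018 and 0.598, 1.03 and 0.478 CPM in controls. All treated libraries exceeded all controls. It rose by 1.77 ± 0.30 (adjusted p = 0.00026) with the combination and by 1.502 ± 0.30 (adjusted p = 0.0043) with crizotinib, and the IN10018 value was 1.10 ± 0.31 (adjusted p = 0.16).

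RPS15AP6, in an intron of the translation initiation factor gene EIF4G3, reached 2.14, 2.14 and 2.16 on the log2 scale with the combination, crizotinib and IN10018, called in the first 2 at adjusted p = 0.0084 and 0.017, from levels under 1 CPM. Its control mean was 0.141 CPM, so it reached the level of 0.5 CPM through the treated groups. RPL7L1P3, in an intron of POR, the cytochrome P450 reductase gene, rose by 1.63 and 1.39 with the combination and crizotinib, the second lost under 7 of 21 alternatives. RPS3AP38, in an intron of HERC4, was not called with any treatment, at 0.39, 0.43 and 0.71 with the combination, crizotinib and IN10018. RPL13P5, which shares exons with LRRC23 and DSTNP2, was not called, at 0.43 with the combination.

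RPL32P3, a transcribed unprocessed pseudogene of 4504 exon bases that is not in a same-strand intron, rose with the combination and with crizotinib. It had 15.9, 20.05 and 15.5 CPM with the combination, 11.3, 17.55 and 11.4 CPM with crizotinib, 9.997, 10.2 and 12.7 CPM with IN10018 and 5.38, 6.58 and 5.42 CPM in controls, and every treated library lay above every control. It rose by 1.56 ± 0.19 (adjusted p = 6.6e-05) with the combination and by 1.21 ± 0.19 (adjusted p = 0.0018) with crizotinib, and stood at 0.92 ± 0.19 with IN10018 (adjusted p = 0.059). No 50-base stretch of it was found in RPL32, which rose by 0.58 with the combination.

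**Figure D4:**
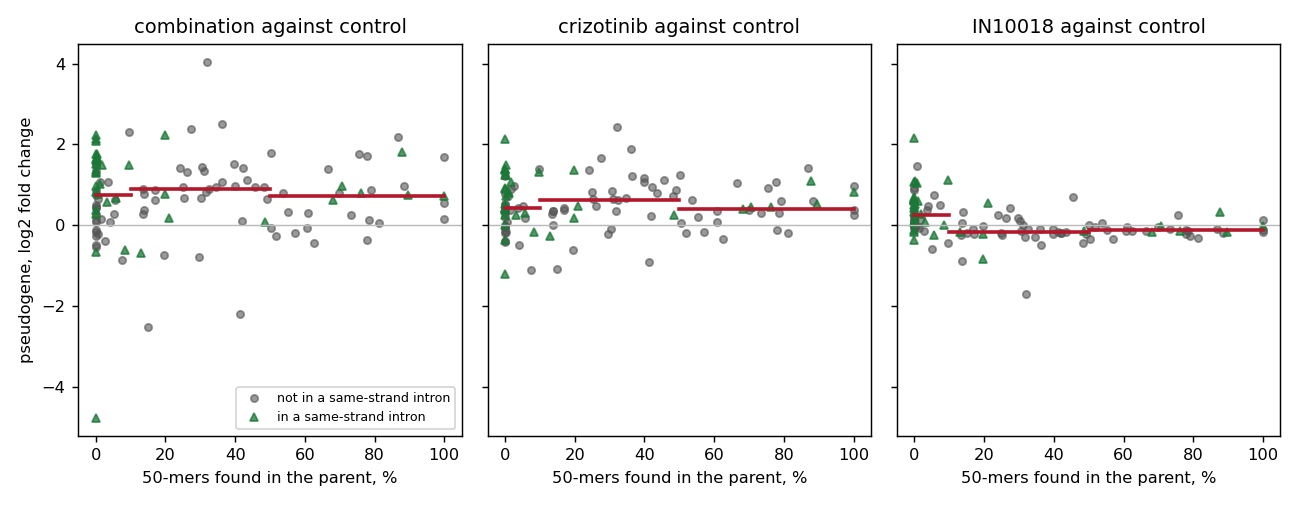
Log2 fold change of 119 pseudogenes against the share of their 50-base stretches found in the parent, in 3 panels for combination, crizotinib and IN10018, each against control; triangles lie in a same-strand intron, circles do not, and red lines are the medians of the classes under 10%, 10 to 50% and 50% or more. With IN10018 the median line is above 0 for the diverged class alone, at 0.24.

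Host genes were set beside them. In 31 pairs of an intronic pseudogene and its tested host, the median with the combination was 1.28 for the pseudogene and -0.22 for the host, and the pseudogene lay above the host in 28. Of these pairs 25 were of the diverged class. Of the 26 intronic diverged rows, 10 had a control mean under 0.5 CPM, with a median of 1.62, against 0.90 for the 16 others. The level of 0.5 CPM tilts such rows upward, and hosts were not chosen by it. Of the 31 hosts 6 rose and 14 fell, beside 33.7 and 29.1% of all genes. Both were called in opposite directions in 12 pairs and in the same direction in 4, and nothing is read from these counts. With crizotinib the medians were 0.53 and -0.18, and with IN10018 0.43 and -0.03, with the pseudogene above in 29 and 23 pairs. The kit keeps the strand, but the strand setting of the counting is not given, so reads from the opposite strand of an intron could not be set apart.

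**Figure D5:**
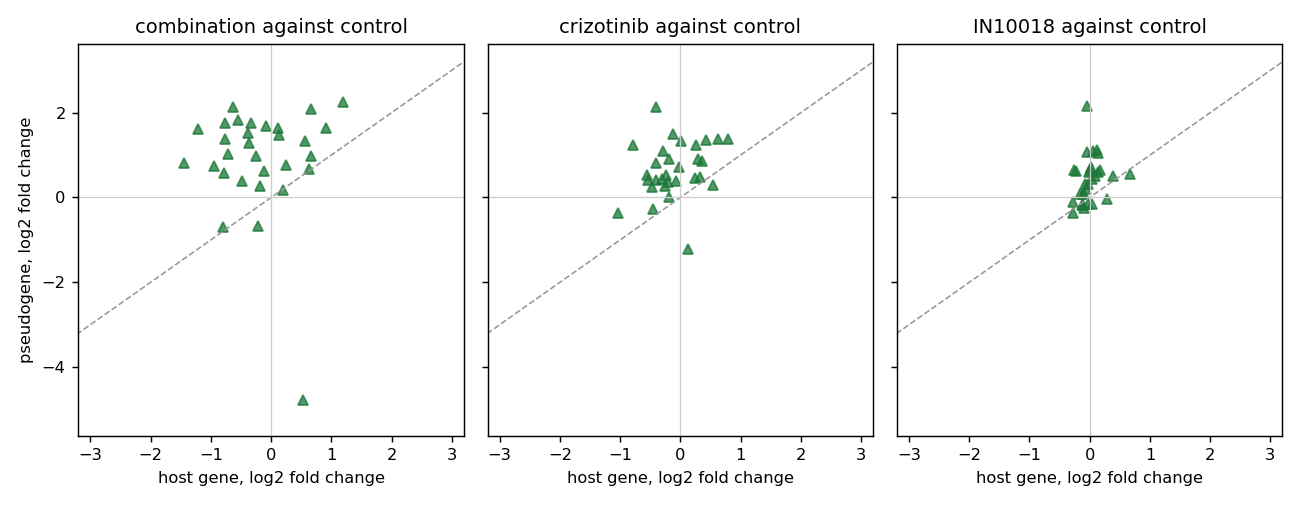
Log2 fold change of 31 pseudogenes in same-strand introns (vertical) and of their host genes (horizontal) in combination, crizotinib and IN10018 against control; the dashed line marks equal change. Most points lie above the line in each panel, and RPL34P20 lies lowest with the combination. Pseudogenes low in controls could enter through a treated group, which tilts them upward, while hosts were not chosen by level.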

How the data were processed

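RNA sequencing of 12 NUGC-4 libraries was analysed from raw read counts per gene, which the authors deposited as 1 table without normalization. The submitters' processing notes name HISAT2 and featureCounts, beside FastQC, Trimmomatic and DESeq2, and the builds hg38 and GRCh38. Versions, read length and the treatment of reads that map to several places are not given in the sources used here, and they decide how reads are shared between a pseudogene and its parent. Per the labels, the libraries were directional.

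All genes were fitted together with edgeR 4.0.16 in R 4.3.3 (TMM scaling, filterByExpr, robust quasi-likelihood F test, 4 group means), and calls were made at a Benjamini-Hochberg adjusted p under 0.05. CPM in the text are counts scaled by library total times TMM factor, unless column totals are named. The SE is the absolute log2 fold change divided by the square root of F. DESeq2 1.42.0 and limma 3.58.1 (voom) were other tools. Parents are the symbols without the final P and number. Transcripts and positions came from GENCODE 29, and alignments from blastn 2.17.0. Per-library log2 ratios to the parent carried a prior count of 0.5. Same-number residual correlations between combination and crizotinib were 0.29, 0.71 and 0.35, all above 0.1, and in no other pair of groups were all 3. Unmatched numbers in these groups ran from -0.61 to 0.50, and crizotinib 1 correlated more with combination 3, at 0.50, than with its own number, so the pairing is a weak one. The procedure was tested on simulated data.

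Members, lists and tests were chosen with earlier results of these data known. Named were the 10 highest rows, up to 6 called rows each way per comparison, the 3 most and 3 least like their parents at a mean of at least 2 CPM, rows opposite to a called parent, rows at the 0.5 CPM limit and the row that is no pseudogene, plus parents. RPSAP58, RPSAP9, RPL41P1, RPL15P3 and rows named for their rank or host fall outside that rule and were chosen after their values were seen. Some results that the rule names are not reported here.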

Additional observations from a re-analysis of the deposited data

How the results depend on the processing

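The 120 rows were refitted with other scalings, filters and tools and without each library. With the combination against control, the 61 higher calls ranged from 41 to 63 and the 7 lower from 4 to 11 when 1 library was left out, and lower calls were 3 by library totals and 3 at a 2-fold minimum. Against IN10018 the ranges were 43 to 64 and 3 to 8. With crizotinib they were 7 to 45 and 0 to 4; 17 rows rose at least 2-fold, and lower calls were 3 without a filter, 2 by DESeq2, 3 by limma-voom, 4 with a replicate block and 0 at a mean of at least 1 CPM. With IN10018 the ranges were 0 to 1 and 0 to 0; higher calls were 2 without a filter, 1 with at least 1 CPM in 3 libraries, 1 by DESeq2, 1 with a replicate block and 4 when the fit held the IN10018 and control libraries alone, which also gave 2 lower calls. Over all genes the fit of IN10018 and control libraries alone gave 1319 higher and 840 lower calls of 15750. Leaving out both libraries numbered 2 gave 3 and 1 with IN10018, beside 627 and 235 of all 17236 genes. For the combination against crizotinib the ranges were 0 to 32 and 0 to 6, with 13 and 4 calls without a filter, 0 and 1 with the replicate block and 22 and 5 without both libraries numbered 2. Over all genes, calls were 772 and 972 of 35679 without a filter and 1877 and 2475 of 17236 without both libraries. For the interaction the ranges were 0 to 5 and 0 to 2, with 3 and 3 without a filter and 11 and 1 without both libraries numbered 2. All genes gave 175 and 124 interaction calls without a filter and 933 and 984 without both libraries. The causes of these shifts were not tested. The numbers pair libraries in the combination against crizotinib alone, and there only weakly. Of 42 calls of named rows against control, 24 held under every alternative run (at most 21), and none changed sign. The median share of the pseudogene found in the parent, 16.9% at 50 bases, was 6.64, 0.130 and 0% at 75, 100 and 150 bases, and 27.7% when any other annotated gene counted. Rows of a few reads per library limit what could be called.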
